A study of Homo sapiens and Canis lupus familiaris with 27 samples.

Results

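The vehicle-treated samples of 2 human prostate cancer cell lines, PC-3 and LNCaP, were compared gene by gene. All vehicle samples of these lines with counts were taken, which gave 5 of the 27 samples of the series: PC-3 replicates 2 and 3, and LNCaP replicates 1 to 3. The first PC-3 control had been excluded by the study and was not used here. Each group had received 0.15% DMSO, the vehicle of the test compound, for 24 h. PC-3, derived from a bone marrow metastasis of a prostate adenocarcinoma, was kept in a mix of DMEM and Ham's F-12, and LNCaP, derived from a lymph node metastasis, in RPMI 1640, both with 10% foetal bovine serum. Each line is a single established cell line, and the replicates were prepared independently of each other from that line, so p-values measure the spread between such samples of 1 line. Cell line and medium cannot be told apart in this comparison. The series used the lines to study a growth inhibitor, PDA-66, and the difference between the untreated lines is the baseline against which a response in either line is read.

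Prostate epithelium holds luminal cells, which secrete prostate-specific antigen and other products into the gland, and basal cells, which anchor the layer to its basement membrane. Luminal cells depend on androgens, steroid hormones that switch on genes such as the kallikreins. LNCaP is widely used as an androgen-responsive luminal model, and PC-3 as a model that grows without androgens. In bulk RNA, fewer transcribing cells and less RNA per cell cannot be told apart.

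Total counts were 15497248 and 15275005 in PC-3 and 13858607, 11923105 and 12651222 in LNCaP. Each table listed 23708 genes, of which 3973 had no count in any of the 5 samples. The leading log2 fold change distance between samples over 500 genes was 1.36 within PC-3, 1.34 to 1.65 within LNCaP and 8.08 to 8.17 between the lines. LNCaP replicate 1 was further from the other LNCaP samples (1.62 and 1.65) than those were from each other (1.34), and without it 6393 genes were called in place of 5591. The biological coefficient of variation of the fit was 0.179. Levels are given below as CPM, the count of a gene relative to the sample's total after TMM scaling, always in the order PC-3 replicates 2 and 3, then LNCaP replicates 1, 2 and 3. Differences are log2 fold changes, PC-3 minus LNCaP, from the edgeR quasi-likelihood F test (n = 2 and 3). The ± value is an SE worked back as the size of the difference divided by the square root of F. Where a line had only a few counts, the difference depends on the prior count that edgeR adds. The SE does not cover that dependence and is not a measure of precision for such genes. A gene was called when its Benjamini-Hochberg adjusted p was under 0.001. A gene with no count in a whole line has no finite fold, and for such genes the difference is given as at least the fold over a floor of 3 counts in that line, which covers counting error only.

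Of the 14407 genes tested, 5591 (38.8%) were called, 2973 (20.6%) higher in PC-3 and 2618 (18.2%) higher in LNCaP. At an unadjusted p under 0.05 the number was 9647. The median log2 difference over all genes tested was -0.001 and the median size was 0.855, which rose to 2.65 among the called genes. A size of at least 5 on the log2 scale was reached by 916 called genes in PC-3 and 593 in LNCaP. A total of 344 genes (2.39%) had at least 5 CPM in every PC-3 sample and at most 0.25 CPM in every LNCaP sample, and 235 (1.63%) showed the reverse. The other line had no count at all for 133 of the former and 100 of the latter. The samples of the lines did not overlap for 10937 genes (75.9%), so lack of overlap by itself is common in this comparison. Among the 3328 genes with at least 50 CPM in every sample, 660 were called, and 660 had a 95% interval of the log2 difference that lay within 0.58 of 0.

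FOLH1, which encodes prostate-specific membrane antigen, was at 0.068 and 0 against 1186, 1396 and 1260 CPM (-14.86 ± 0.46, edgeR adjusted p = 1.7e-11). TMPRSS2, an androgen-regulated serine protease gene, was at 0.476 and 0.68 against 298, 568 and 484 CPM (-9.58 ± 0.42). For both genes every LNCaP sample was at 298 CPM or more and every PC-3 sample at 0.68 CPM or less.

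The opposite set marked PC-3. VIM, the intermediate filament vimentin of mesenchymal cells, was at 1797 and 2487 CPM against 14.8, 13.5 and 12.2 CPM (7.31 ± 0.25). CD44, a hyaluronan receptor, was at 572 and 590 CPM and had 3 counts in the 3 LNCaP samples together (12.74 ± 0.35). CAV1, the main protein of caveolae, was at 120.2 ± 6.03 CPM (SD, n = 2) with no count in LNCaP, at least 1586-fold higher. NR3C1, the glucocorticoid receptor gene, was at 61.3 and 50.6 against 0.42, 1.22 and 1.08 CPM (5.96 ± 0.32). EGFR went against its place among the PC-3 markers: it was at 39.5 and 16.3 CPM in PC-3 and 56.3, 78.0 and 82.3 CPM in LNCaP, a difference that was not called (-1.37, 95% interval -2.04 to -0.70, edgeR adjusted p = 0.00158), but was called without PC-3 replicate 2 (adjusted p = 9.67e-05) or LNCaP replicate 1 (8.47e-06). The epithelial keratin genes KRT8 (-0.55, interval -1.02 to -0.09) and KRT18 (0.46, interval 0.08 to 0.84) were expressed in all 5 samples and not called. HOXB13, a homeobox gene of the prostate lineage, was high in both lines, at 816 and 762 against 477, 364 and 360 CPM (0.98 ± 0.20, edgeR adjusted p = 0.000562), a call that was lost without PC-3 replicate 2, PC-3 replicate 3, LNCaP replicate 2 or LNCaP replicate 3 (adjusted p = 0.00335, 0.00156, 0.00794 and 0.00471).

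**Figure D1:**
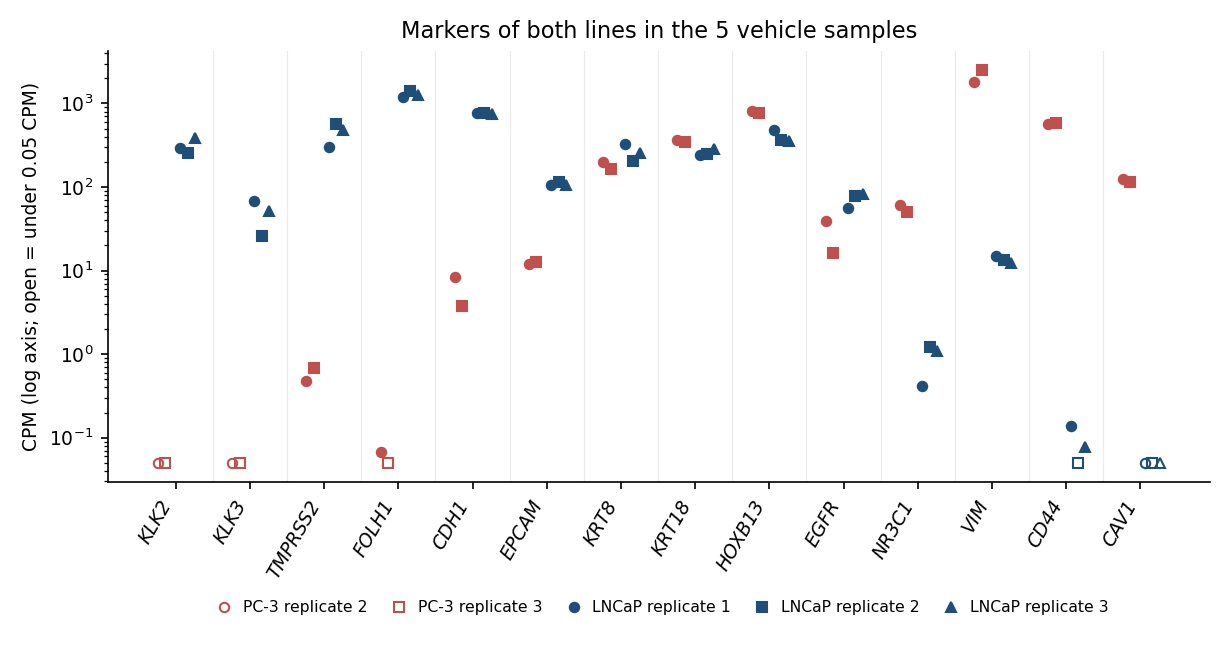
CPM on a log axis for markers of both lines in each vehicle sample (red, PC-3; blue, LNCaP; 1 symbol per sample, open symbols for values under 0.05 CPM). The androgen-regulated KLK2, KLK3 and TMPRSS2 sit at 25.8 CPM or more in LNCaP and at 0.68 CPM or less in PC-3, KRT8, KRT18 and HOXB13 are high in both, and VIM, CD44 and CAV1 are higher in PC-3.

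Of 13 leukocyte genes, 2 passed the filter, CD79A and LYZ (lysozyme), both higher in PC-3 (1 without PC-3 replicate 2, without PC-3 replicate 3 or without LNCaP replicate 2), and the list summed to 15.9 to 21.6 CPM in PC-3 and 0.163 to 1.19 CPM in LNCaP. Of the leukocyte genes tested, 100% were called, against 38.8% of all genes. A gene that only 1 line expresses passes the filter through that line and is then likely to be called. The share called among these few genes is therefore no evidence about the list. That limit holds for the endothelial and fibroblast genes below as well. PTPRC, the pan-leukocyte gene CD45, had 6 counts in PC-3 and 0 in LNCaP. The endothelial list summed to 173 to 187 CPM in PC-3 and 54.6 to 67 CPM in LNCaP, and the fibroblast list to 106 to 109 and 43.2 to 48.3 CPM. Of 9 endothelial genes, 5 passed the filter and 100% of these were called, against 38.8% of all genes. KDR, PECAM1 and ESAM were higher in PC-3 and VWF and EGFL7 in LNCaP, while CDH5 did not pass. KDR alone was at 164 and 128 CPM in PC-3. No erythroid gene of 7 passed. Of 12 fibroblast genes, 7 passed, 4 of them higher in PC-3 and 1 in LNCaP, 71.4% called against 38.8% of all genes. Without LNCaP replicate 2, 2 genes were called, and the number called also fell without PC-3 replicate 2 or PC-3 replicate 3. DCN and LUM did not pass. The part of other cells in the differences below was not tested.

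The kallikrein genes KLK3 and KLK2 lie side by side on chromosome 19 and are classic androgen-regulated genes. KLK3, which encodes prostate-specific antigen, had no count in PC-3 and 67.6, 25.8 and 51.8 CPM in LNCaP, at least 485-fold higher in LNCaP. KLK2 had no count in PC-3 and 291, 253 and 388 CPM in LNCaP, at least 3046-fold higher. The 250 bases before the start of each gene are shown because these 2 genes moved together and stand in a row (RefSeq, GRCh38.p14, + strand, chr19:50854665-50854914 for KLK3 and chr19:50873189-50873438 for KLK2). Capitals mark the match to GAACA and GTNCT separated by 4 bases, a relaxed form of the inverted repeat known as the androgen response element, searched on both strands and chosen after these sequences were read.
KLK3: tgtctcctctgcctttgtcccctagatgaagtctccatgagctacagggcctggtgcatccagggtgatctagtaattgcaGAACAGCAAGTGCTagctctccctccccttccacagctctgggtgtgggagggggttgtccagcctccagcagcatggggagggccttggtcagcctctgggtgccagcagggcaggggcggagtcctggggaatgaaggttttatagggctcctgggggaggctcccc
KLK2: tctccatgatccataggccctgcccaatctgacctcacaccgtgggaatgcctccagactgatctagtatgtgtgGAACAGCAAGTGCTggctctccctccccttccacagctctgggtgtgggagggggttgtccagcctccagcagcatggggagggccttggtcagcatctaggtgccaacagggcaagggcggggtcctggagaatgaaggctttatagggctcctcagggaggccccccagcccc
The match begins 169 bases before the start of KLK3 and 175 bases before that of KLK2. It occurs in 76 of 35116 RefSeq promoters of the same length (0.216%). Because the pattern was chosen from these 2 windows, this share does not measure how unusual the match is. The 2 windows are also nearly the same from the match onward, so they are not separate occurrences. The shorter motif AGAACA, whose last 5 letters overlap the match, is in the KLK3 window, at -170, and not in the KLK2 window, and it occurs in 12.4% of promoters on either strand. The windows of KLK4, FKBP5 and SLC45A3 held neither motif. A match describes letters and was not tested for binding.

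Most of the listed androgen-regulated genes were called higher in LNCaP. Of 27 listed and tested genes, 20 were higher in LNCaP and 3 in PC-3, against 18.2% and 20.6% of all genes, and the median log2 difference was -2.34. The counts were 15 and 3 with no filter on low counts, 18 and 3 without LNCaP replicate 2 and 22 and 3 without LNCaP replicate 1. KLK4, another kallikrein, was at 0 and 0.068 against 234, 195 and 297 CPM (-12.46 ± 0.48). SLC45A3, a solute carrier of luminal cells known as prostein, was at 31.1 and 20.2 against 255, 294 and 358 CPM (-3.56 ± 0.26). FKBP5, a co-chaperone of steroid receptors that the glucocorticoid receptor also induces, was expressed in both lines, at 38.1 and 29.5 against 145, 132 and 122 CPM (-1.97 ± 0.20). MAF, a leucine zipper factor, had no count in PC-3 and 24.7 to 32.6 CPM in LNCaP, at least 278-fold higher. PMEPA1, an androgen-induced membrane protein gene, was at 2.11 and 3.27 against 293 to 413 CPM (-6.98 ± 0.31). The 3 genes higher in PC-3 were NDRG1, a stress-responsive gene (3.62 ± 0.19), HPGD, which inactivates prostaglandins (5.82 ± 0.21), and PTGER4, a prostaglandin E2 receptor (5.14 ± 0.27). NDRG1 was at 1716 and 1480 CPM in PC-3 and still at 126 to 136 CPM in LNCaP.

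Lineage transcription factors differed in both directions, 7 of 19 tested higher in PC-3 and 5 in LNCaP, against 20.6% and 18.2% of all genes. GRHL2, a grainyhead factor that maintains epithelial junction genes, was at 0.136 and 0.34 against 176, 198 and 160 CPM (-9.49 ± 0.35). EHF, an epithelial ETS factor, was at 7.41 and 11.3 against 796, 999 and 792 CPM (-6.53 ± 0.30). GATA2, a zinc finger factor, was at 3.60 and 1.63 against 181, 140 and 134 CPM (-5.85 ± 0.33). In contrast, FOXA1, a pioneer factor that opens chromatin, was strongly expressed in both lines and not called, at 432 and 416 against 589, 722 and 677 CPM (-0.64, interval -1.05 to -0.23). SOX9, a progenitor factor, was higher in PC-3, at 162 and 134 against 1.68 to 2.36 CPM (6.18 ± 0.23), as were CREB3L1 (9.06 ± 0.30), KLF5 (2.61 ± 0.24) and GATA3 (6.06 ± 0.74). The balance turned under library size scaling (5 higher in PC-3 and 7 in LNCaP), without PC-3 replicate 2 or PC-3 replicate 3 (4 and 5 each), with no filter on low counts (4 and 5) and in 1 fit over all human samples (6 and 7).

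Among 18 other nuclear receptors tested, 4 were higher in PC-3 and 2 in LNCaP, or 33.3% called against 38.8% of all genes, with a median of 0.59. The LNCaP count was 1 without PC-3 replicate 3. Besides NR3C1, PPARG, a receptor for fatty acids, was at 158 and 185 against 0.897 to 1.05 CPM (7.47 ± 0.24), and the orphan receptor NR2F1 at 288 and 206 against 1.79 to 4.23 CPM (6.22 ± 0.30). RXRA, the partner of several of these receptors, was higher in LNCaP, at 28.6 and 19.8 against 111, 73.7 and 101 CPM (-1.98 ± 0.24). The genes for oestrogen receptor alpha and the progesterone receptor, ESR1 and PGR, did not pass the filter.

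Of 17 tested genes of androgen metabolism, 8 were higher in LNCaP and 4 in PC-3, against 18.2% and 20.6% of all genes, with a median of -1.56 (without PC-3 replicate 3, 5 and 1). With no filter on low counts 20 were tested, 4 higher in LNCaP and 0 in PC-3, and without LNCaP replicate 2 the counts were 7 and 2. The LNCaP side was led by UGT2B enzymes, which attach glucuronic acid to androgens and so inactivate them. UGT2B17 had no count in PC-3 and 356, 249 and 208 CPM in LNCaP, at least 2686-fold higher. UGT2B15 was at 0.136 and 0.136 against 156, 93.9 and 95.6 CPM (-9.63 ± 0.45), and UGT2B11 at 0.068 and 0.136 against 196, 114 and 118 CPM (-10.33 ± 0.48). These genes are similar in sequence, and how reads that fit several of them were counted is not stated. On the PC-3 side, AKR1C3, which reduces androstenedione to testosterone, was at 4.83 and 7.96 against 0.0769 to 0.629 CPM (3.96 ± 0.50). The genes for the first steps of steroid synthesis and for the type 2 reductase, CYP17A1, HSD3B2 and SRD5A2, did not pass the filter.

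Luminal genes beyond the androgen targets leaned to LNCaP, 10 of 21 tested higher in LNCaP and 5 in PC-3, 71.4% called against 38.8% of all genes, with a median of -2.05. CDH1, the epithelial cadherin, was at 8.43 and 3.81 against 767, 777 and 748 CPM (-6.96 ± 0.35). STEAP2, a metalloreductase, was at 11.02 and 7.89 against 1051, 1533 and 1228 CPM (-7.07 ± 0.31), and EPCAM, the epithelial adhesion molecule, at 12.0 and 12.8 against 106, 114 and 105 CPM (-3.12 ± 0.20). The 5 luminal genes higher in PC-3 included KRT19, at 516 and 477 against 23.01, 11.7 and 13.3 CPM (4.95 ± 0.27), DPP4, the peptidase CD26, at 370 and 309 against 0.538 to 0.909 CPM (8.79 ± 0.26), and CD24 (6.15 ± 0.32).

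Basal genes were mostly higher in PC-3. Of 20 listed genes 15 passed the filter, 11 were higher in PC-3 and 1 in LNCaP, 80% called against 38.8% of all genes, and the median was 6.54, or 3.84 with genes absent from 1 line set at their bound. The counts were 8 and 1 without PC-3 replicate 2, 9 and 0 without PC-3 replicate 3 and 11 and 2 without LNCaP replicate 1. ITGB4, the integrin of hemidesmosomes, was at 540 and 330 against 1.61, 1.22 and 1.31 CPM (8.28 ± 0.29), KRT15 at 44.5 and 41.0 against 0 to 0.21 CPM (8.60 ± 0.41), and CDH3, placental cadherin, at 33.5 and 19.9 against 0.245 to 0.307 CPM (6.54 ± 0.38). The genes that define basal prostate cells were low or absent: KRT5 had 0 counts in PC-3 and 1 in LNCaP, KRT14 was higher in LNCaP at 1.15 to 2.04 CPM against 1 count in PC-3 (-5.18 ± 0.82, a call lost without PC-3 replicate 2 or PC-3 replicate 3), and TP63, the basal master factor, was at 0.884 and 1.29 CPM in PC-3 with no count in LNCaP, at least 14.4-fold higher.

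Of 24 listed mesenchymal genes 20 passed the filter, 14 were higher in PC-3 and 3 in LNCaP, 85% called against 38.8% of all genes, with a median of 7.37 (6.57 at the bounds). CDH2, neural cadherin, was at 78.6 and 58.8 CPM with 1 count in LNCaP (10.97 ± 0.44), and CDH11, the cadherin of bone-forming cells, at 387 and 388 CPM with 3 counts in LNCaP (12.16 ± 0.35). Of the factors known to repress epithelial cadherin, ZEB1 was at 56.4 and 61.0 against 0.154 to 0.21 CPM (8.30 ± 0.31), ZEB2 at 3.20 and 4.29 CPM with no count in LNCaP (at least 49.4-fold higher) and SNAI2 at 17.8 and 22.2 against 1.54 to 3.08 CPM (3.23 ± 0.31), while SNAI1 and TWIST1 were not called. The genes higher in LNCaP were FN1, fibronectin, at 88.5 and 38.3 against 334, 294 and 352 CPM (-2.36 ± 0.30), and the actin-binding genes CALD1 (-2.25 ± 0.24) and TAGLN (-2.15 ± 0.39). The call of TAGLN was lost without PC-3 replicate 2, PC-3 replicate 3 or LNCaP replicate 2, which left 2 genes higher in LNCaP, and with no filter on low counts 1 was left.

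**Figure D2:**
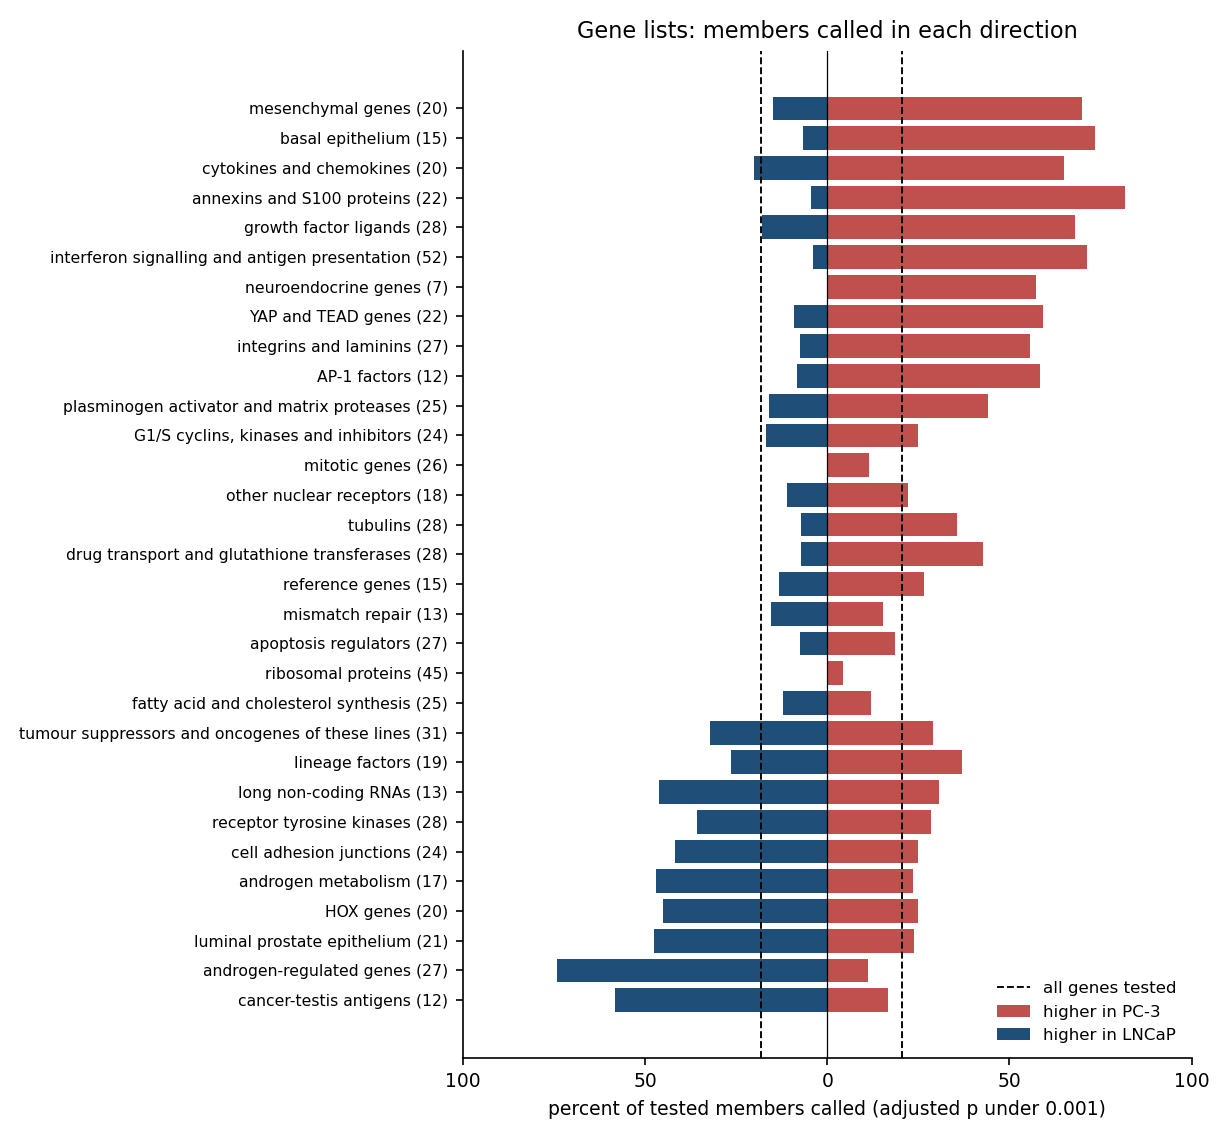
Percent of the tested members of gene lists called higher in PC-3 (red, to the right) or higher in LNCaP (blue, to the left), with the number of tested members in brackets and lists ordered by median log2 difference. Dashed lines mark the same percentages over all genes tested, 20.6% and 18.2%; annexin and S100, basal, interferon and mesenchymal genes reach furthest to the right, and androgen-regulated genes furthest to the left.

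Of 24 tested junction genes, 10 were higher in LNCaP and 6 in PC-3, against 18.2% and 20.6% of all genes, with a median of -1.0. CTNNA1, alpha-catenin, which links cadherins to actin, was at 1.84 and 1.63 against 389, 442 and 442 CPM (-7.93 ± 0.28). The tight-junction gene CLDN7 was at 3.40 and 3.61 against 239, 318 and 382 CPM (-6.48 ± 0.29), and DSP, desmoplakin, at 51.4 and 25.7 against 322, 376 and 404 CPM (-3.25 ± 0.29). PC-3 instead had higher PKP1, a desmosomal plakophilin, at 412 and 284 against 1.05 to 2.54 CPM (7.74 ± 0.32), and DSC3, a desmosomal cadherin, at 321 and 189 against 0.769 to 3.36 CPM (7.18 ± 0.43). PKP1 and DSC3 overlapped in no sample between the lines.

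Integrins and laminins, the receptors and ligands of the basement membrane, were higher in PC-3 for 15 of 27 tested genes and in LNCaP for 2, 63% called against 38.8% of all genes, with a median of 1.42. ITGA3 was at 531 and 454 against 16.1, 9.78 and 15.8 CPM (5.15 ± 0.24), LAMB1 at 565 and 442 against 8.11, 5.14 and 7.38 CPM (6.19 ± 0.24) and LAMB3 at 194 and 104 against 6.29, 2.04 and 2.54 CPM (5.34 ± 0.39). ITGB8, which activates latent TGF-beta, was at 111 and 109 against 0.489 to 0.692 CPM (7.61 ± 0.26). LAMA3, which pairs with LAMB3, was not called, at 367 and 233 against 147, 215 and 259 CPM (0.54 ± 0.25).

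Of 25 tested genes for proteases and their inhibitors, 11 were higher in PC-3 and 4 in LNCaP (12 and 7 without LNCaP replicate 1), against 20.6% and 18.2% of all genes. PLAU, urokinase, was at 176 and 188 CPM with 1 count in LNCaP (12.37 ± 0.38), its receptor gene PLAUR at 53.4 and 50.2 against 0.245 to 0.846 CPM (6.59 ± 0.32), and PLAT, the tissue-type activator, at 616 and 647 against 0.692 to 1.06 CPM (9.59 ± 0.26). The serine protease gene HPN, hepsin, had no count in PC-3 and 92.2, 89.9 and 118 CPM in LNCaP, at least 981-fold higher, and ST14, matriptase, was at 1.02 and 1.02 against 307, 194 and 228 CPM (-7.88 ± 0.33). MMP1, interstitial collagenase, was at 57.3 and 57.9 CPM with 1 count in LNCaP (10.71 ± 0.43), and MMP14 at 133 and 82.2 against 0.14 to 0.692 CPM (8.21 ± 0.39), whereas MMP2, MMP3 and MMP9 did not pass the filter.

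Of 28 tested receptor tyrosine kinases, 8 were higher in PC-3 and 10 in LNCaP, 64.3% called against 38.8% of all genes, with a median of -0.83. MET, the hepatocyte growth factor receptor, was at 578 and 524 against 2.52, 5.54 and 4.84 CPM (7.01 ± 0.29), and its relative MST1R at 146 and 127 against 0.163 to 0.49 CPM (8.56 ± 0.30). EPHA2 was at 484 and 459 against 16.1, 13.3 and 15.3 CPM (4.98 ± 0.20), and AXL at 40.0 and 32.4 against 0 to 0.35 CPM (7.42 ± 0.42). On the LNCaP side were ERBB3, at 11.9 and 6.94 against 174, 195 and 191 CPM (-4.31 ± 0.26), ERBB2, at 40.5 and 27.5 against 262, 250 and 267 CPM (-2.93 ± 0.22), and IGF1R, at 8.23 and 6.26 against 81.1, 66.4 and 67.8 CPM (-3.31 ± 0.24). FGFR2 had no count in PC-3 and 3.08 to 4.92 CPM in LNCaP, at least 41.6-fold higher.

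Ligand genes were mostly higher in PC-3, 19 of 28 tested growth factor genes against 5 in LNCaP (17 and 3 without PC-3 replicate 3), 85.7% called against 38.8% of all genes, with a median of 3.37. TGFB1 was at 143 and 117 against 0, 0 and 0.231 CPM (10.58 ± 0.43), and VEGFC, a lymphatic growth factor, at 63.7 and 77.1 CPM with no count in LNCaP, at least 929-fold higher. The EGF receptor ligand TGFA was at 43.1 and 37.3 against 4.62, 3.34 and 3.31 CPM (3.41 ± 0.24), and FGF2 at 39.5 and 33.9 against 0 to 0.307 CPM (7.84 ± 0.42). EGF itself was higher in LNCaP, at 2.92 and 2.25 against 14.6, 21.2 and 25.8 CPM (-2.98 ± 0.32), as was IGF1, at 0.068 and 0.272 against 2.66, 6.20 and 4.38 CPM (-4.62 ± 0.63). VEGFA was not called, at 90.6 and 107 against 41.8, 108 and 129 CPM.

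Of 33 cytokine and chemokine genes 20 passed the filter, 13 higher in PC-3 and 4 in LNCaP (10 and 2 without PC-3 replicate 2), 85% called against 38.8% of all genes, with a median of 4.20 (3.95 at the bounds). With no filter on low counts 31 were tested, 7 higher in PC-3 and 2 in LNCaP. IL8, a neutrophil chemokine, was at 30.8 and 38.0 against 0.21 to 0.615 CPM (6.47 ± 0.34), IL1B at 31.6 and 30.1 against 0.0769 to 0.21 CPM (7.59 ± 0.36), and IL18 at 64.8 and 91.0 against 0.21 to 0.326 CPM (8.08 ± 0.32). LIF, a ligand that signals through STAT3, was at 70.7 and 65.8 against 11.3, 4.81 and 8.30 CPM (3.06 ± 0.28). IL6 did not pass the filter, with 11 counts in PC-3 and 1 in LNCaP. TNFSF15, a TNF family ligand, was higher in LNCaP, at 1.63 and 1.43 against 29.2, 71.6 and 64.2 CPM (-5.16 ± 0.42), as was IL1RN, the interleukin-1 receptor antagonist (-3.13 ± 0.51).

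Interferon signalling and antigen presentation formed the longest list, and all 52 of its genes were tested. Of these, 37 were higher in PC-3 and 2 in LNCaP, against 20.6% and 18.2% of all genes, and the median was 2.15. The counts were 26 and 2 with no filter on low counts, 29 and 2 without LNCaP replicate 2 and 39 and 2 without LNCaP replicate 1. The kinase gene JAK1, needed by every interferon receptor, was at 159 and 115 against 6.85, 16.1 and 15.1 CPM (3.43 ± 0.30). IRF9, a part of the factor that carries the signal to the nucleus, was at 63.7 and 69.8 against 7.27, 6.77 and 9.07 CPM (3.11 ± 0.21). The receptor genes IFNAR1, IFNAR2 and IFNGR1 were not called, and IFNGR2 was higher in PC-3.

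Among interferon-induced genes, BST2, tetherin, was at 297 and 256 against 3.01, 1.30 and 0.922 CPM (7.28 ± 0.33), IFIT3 at 108 and 118 against 4.41, 1.88 and 0.769 CPM (5.56 ± 0.40), and OAS2, which makes the activator of ribonuclease L, at 57.6 and 33.5 against 0 to 0.42 CPM (7.45 ± 0.46). PSMB8, an immunoproteasome subunit, was at 26.4 and 30.1 against 0.231 to 0.559 CPM (6.29 ± 0.35). B2M, the light chain of class I molecules, was at 760 and 824 against 244, 251 and 254 CPM (1.67 ± 0.18). The class I genes HLA-B (0.55, interval 0.16 to 0.94) and HLA-C (-0.57, interval -0.96 to -0.18) were not called. The polymorphic HLA genes were counted on a reference sequence, so a difference between lines may include reads that fit the reference less well, which was not tested. The genes higher in LNCaP were JAK2 (-1.80 ± 0.24) and STAT3, which had no count in PC-3.

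Tumour suppressors and oncogenes known for lesions in these lines gave 9 genes higher in PC-3 and 10 in LNCaP of 31 tested, 61.3% against 38.8% of all genes. Without PC-3 replicate 3 the counts were 9 and 6. CDKN2A and CDKN2B, neighbouring genes for inhibitors of the G1 kinases, were high in PC-3, at 195 and 206 against 4.90, 5.14 and 4.69 CPM (5.35 ± 0.20) and at 251 and 316 against 1.68, 2.36 and 2.23 CPM (7.09 ± 0.24). RB1, their downstream target, was not called (0.90 ± 0.21). MYC was at 735 and 801 against 263, 195 and 296 CPM (1.61 ± 0.21) and SMAD4 was higher in LNCaP with an edgeR adjusted p near the threshold (-1.0 ± 0.21, adjusted p = 0.000980), which it missed without any of the samples other than LNCaP replicate 1. GSTP1, the glutathione transferase that is known to be silenced in most prostate cancers, was at 142 and 140 CPM in PC-3 with no count in LNCaP, at least 1860-fold higher.

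The ETS genes of the PEA3 group differed member by member. ETV1 was higher in LNCaP, at 87.4 and 78.0 against 291, 498 and 380 CPM (-2.24 ± 0.24). ETV4 was at 116.5 and 120 CPM in PC-3 with 4 counts in LNCaP (10.07 ± 0.32), and ETV5 at 123 and 110 against 0.769, 1.88 and 1.46 CPM (6.42 ± 0.28). CIC, a repressor known to act on these 3 genes, had no count in PC-3 and 38.7, 29.3 and 34.7 CPM in LNCaP, at least 338-fold higher, and a link between these values was not tested. ERG did not pass the filter, with 2 counts in PC-3 and 0 in LNCaP.

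CDKN1A, the kinase inhibitor p21, was at 50.04 and 39.1 against 683, 173 and 236 CPM (-3.03 ± 0.48), MDM2 at 110 and 113 against 807, 439 and 364 CPM (-2.27 ± 0.30) and BTG2 at 0.544 and 0.749 against 78.1, 34.2 and 33.7 CPM (-6.22 ± 0.49). LNCaP replicate 1 was the highest sample for these 3 genes, and the lines did not overlap. CDKN1A was not called without PC-3 replicate 2 (edgeR adjusted p = 0.00148) or PC-3 replicate 3 (0.00267).

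Genes of the Hippo pathway's factors were higher in PC-3 for 13 of 22 tested and in LNCaP for 2, 68.2% called against 38.8% of all genes, with a median of 1.71. WWTR1, the coactivator TAZ, was at 780 and 675 against 3.64, 6.52 and 8.53 CPM (6.87 ± 0.30), while its relative YAP1 was not called (-0.33, interval -0.73 to 0.07). CTGF, a classic target, was at 45.6 and 136 against 0.154 to 0.245 CPM (8.75 ± 0.52). CYR61 was at 70.7 and 163 against 23.6, 44.02 and 30.8 CPM (1.83 ± 0.31), a call not kept in every alternative. PC-3 replicate 3 was the higher of the PC-3 samples for CTGF and CYR61. AMOT, an adaptor that holds YAP outside the nucleus, had no count in PC-3 and 31.3, 31.3 and 26.1 CPM in LNCaP, at least 290-fold higher.

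Of 12 AP-1 genes, 7 were higher in PC-3 and 1, ATF3, in LNCaP (6 and 0 without PC-3 replicate 2 or LNCaP replicate 2), 66.7% called against 38.8% of all genes. FOSL1 was at 216 and 295 against 0.245 to 0.461 CPM (9.36 ± 0.29) and JUNB at 194 and 287 against 39.3, 17.7 and 19.2 CPM (3.24 ± 0.30), while JUN was not called (0.40, interval -0.09 to 0.89). Annexins and S100 proteins, which bind calcium and membranes, were higher in PC-3 for 18 of 22 tested genes and in LNCaP for 1 (14 and 0 without PC-3 replicate 2 or PC-3 replicate 3), 86.4% called against 38.8% of all genes, with a median of 4.05. S100A6 was at 995 and 1271 CPM with no count in LNCaP, at least 14940-fold higher. S100A10 was at 337 and 394 CPM with no count in LNCaP, at least 4822-fold higher, and ANXA2, with which it forms a complex at the membrane, at 1122 and 1180 against 0.163 to 0.49 CPM (11.85 ± 0.32). S100A11 and ANXA6 were not called.

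HOX genes, which set position along the body axis, differed in both directions. Of 39 listed genes 20 passed, 9 higher in LNCaP and 5 in PC-3, 70% called against 38.8% of all genes, with a median of -1.76 (without PC-3 replicate 3, 6 and 3, and without PC-3 replicate 2, 7 and 3). HOXA13 was at 119 and 76.4 CPM with no count in LNCaP, at least 1290-fold higher, and the adjacent non-coding gene HOTTIP at 27.6 and 19.6 CPM, at least 311-fold higher. HOXA11 and HOXA9 were higher in PC-3 as well, and HOXA5 and HOXA6 in LNCaP. From the HOXC cluster, HOXC4, HOXC5, HOXC6, HOXC9, HOXC12 and HOXC13 were higher in LNCaP, with HOXC6 at 0.272 and 0.272 against 22.8, 20.9 and 23.4 CPM (-6.31 ± 0.36) and HOXC13 at 0.068 and 0 against 12.7, 7.66 and 8.76 CPM (-7.82 ± 0.65). No HOXD gene of the list passed the filter.

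Cancer-testis antigens, normally limited to germ cells, gave 7 genes higher in LNCaP and 2 in PC-3 of 12 tested (6 and 1 without PC-3 replicate 3 or LNCaP replicate 2), 75% called against 38.8% of all genes. MAGEA4 was at 0.068 and 0 against 96.8, 69.7 and 67.6 CPM (-10.82 ± 0.50) and PRAME at 4.62 and 4.42 against 114, 88.9 and 95.2 CPM (-4.46 ± 0.24). Of 13 long non-coding RNAs tested, 6 were higher in LNCaP and 4 in PC-3 (without PC-3 replicate 2, 2 and 4), 76.9% called. PCAT1 had no count in PC-3 and 8.95, 6.85 and 8.53 CPM in LNCaP, at least 80-fold higher, and MIR31HG was at 12.9 and 15.9 CPM with no count in LNCaP, at least 190-fold higher. NEAT1 was not called, at 1213 and 1378 against 984, 1109 and 1597 CPM. Of 18 neuroendocrine genes, 11 were under 1 CPM in all samples and 7 passed the filter. Of these 7, 4 were higher in PC-3 and 0 in LNCaP, 57.1% called against 38.8% of all genes. Among the 4 was UCHL1, a ubiquitin hydrolase, at 491 and 468 against 0.734 to 0.999 CPM (9.11 ± 0.25). CHGA and NCAM1 did not pass.

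Tubulins form the microtubules of the cytoskeleton and the mitotic spindle. Of 28 tested tubulin and tubulin-folding genes, 10 were higher in PC-3 and 2 in LNCaP, with a median of 0.56, or 42.9% called against 38.8% of all genes. The LNCaP count was 5 without LNCaP replicate 1 and 1 without PC-3 replicate 2 or PC-3 replicate 3. TUBB6 was at 104 and 83.3 against 0.769, 1.22 and 1.08 CPM (6.52 ± 0.27), TUBB3, the neuronal beta-tubulin, at 191 and 176 against 24.1, 29.2 and 38.8 CPM (2.58 ± 0.21) and TUBA1A at 178 and 158 against 13.7, 19.5 and 17.7 CPM (3.31 ± 0.20). TUBB, the common form, was not called, at 1271 and 1084 against 958, 712 and 607 CPM. Reads shared between tubulin genes of similar sequence may have been counted either way.

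Of 28 tested genes for drug transport and conjugation, 12 were higher in PC-3 and 2 in LNCaP, with a median of 0.53, or 50% called against 38.8% of all genes. The LNCaP count was 4 without LNCaP replicate 1 and 1 without each of the other samples in turn. ABCC3, an efflux pump for conjugates, was at 97.8 and 72.3 CPM with 1 count in LNCaP (11.28 ± 0.44), and ALDH3A1, an aldehyde dehydrogenase, at 21.8 and 17.01 CPM with no count in LNCaP, at least 256-fold higher. GSTA1 had no count in PC-3 and 6.57, 12.0 and 7.22 CPM in LNCaP, at least 83-fold higher. The pumps ABCB1 and ABCG2, best known for drug resistance, did not pass the filter, with 2 and 4 counts in PC-3 and 4 and 22 in LNCaP.

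Of 26 tested genes of the mitotic machinery, 3 were higher in PC-3 (KIF23, TOP2A and UBE2C) and 0 in LNCaP, 11.5% against 38.8% of all genes, with a median of 0.59. The list summed to 2440 to 3020 CPM in PC-3 and 959 to 2340 CPM in LNCaP, so the LNCaP samples spread more widely. The number called was 1 without PC-3 replicate 2, 0 without PC-3 replicate 3 and 9, all higher in PC-3, without LNCaP replicate 1. MKI67, the proliferation marker Ki-67, was at 184 and 158 against 168, 152 and 88.3 CPM (0.33, interval -0.19 to 0.84). Among G1/S genes, 6 of 24 tested were higher in PC-3 and 4 in LNCaP, 41.7% against 38.8% of all genes. The counts were 10 and 4 without LNCaP replicate 1, and 5 and 2 without PC-3 replicate 2 or PC-3 replicate 3. CDK6 was at 79.5 and 52.5 against 0.909, 1.22 and 1.54 CPM (5.75 ± 0.29), CCND1 at 690 and 680 against 278, 251 and 242 CPM (1.42 ± 0.18) and CCNE1 at 2.52 and 1.43 against 15.8, 12.7 and 10.4 CPM (-2.72 ± 0.34).

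Apoptosis regulators gave 5 genes higher in PC-3 and 2 in LNCaP of 27 tested, 25.9% against 38.8% of all genes. CASP8, the initiator caspase of death receptors, was at 65.0 and 73.5 against 18.0, 14.8 and 17.9 CPM (2.03 ± 0.20), BCL2L1 at 272 and 310 against 126, 95.2 and 98.2 CPM (1.45 ± 0.19) and BCL2L11, which encodes the death-promoting protein BIM, at 28.6 and 21.2 against 52.2, 71.9 and 60.6 CPM (-1.31 ± 0.22). The number called was 4 without PC-3 replicate 2, and 2 without PC-3 replicate 3 or LNCaP replicate 2. The mismatch repair list gave 2 genes in each direction of 13 tested, 30.8% against 38.8% of all genes. MSH6 was not called (0.22 ± 0.21), and PMS2, which has close pseudogenes, was higher in LNCaP, at 17.8 and 16.8 against 88.0, 86.3 and 79.4 CPM (-2.29 ± 0.20). Without PC-3 replicate 2, and likewise without PC-3 replicate 3, 1 gene in each direction was called, and without LNCaP replicate 1, 4 and 3.

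Of 45 ribosomal protein genes 2 were called (4.44%, against 38.8% of all genes), with a median of 0.09, which turned to -0.02 under library size scaling. The number called was 5 without PC-3 replicate 2, 1 without PC-3 replicate 3, and 0 without LNCaP replicate 2 or replicate 3. Of 25 genes of fatty acid and cholesterol synthesis, 3 were higher in each line (24% called), with a median of -0.35. The LNCaP count was 1 without PC-3 replicate 3, 5 without PC-3 replicate 2 and 6 without LNCaP replicate 1. SQLE, which makes squalene epoxide, was at 92.9 and 66.6 against 84.7, 82.3 and 78.8 CPM (-0.04, interval -0.45 to 0.37). Of 15 genes used as references, 6 were called, 40% against 38.8% of all genes (3 without PC-3 replicate 2), led by PGK1 (2.42 ± 0.20), and TBP was not (-0.02, interval -0.50 to 0.46).

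The genes with the largest differences in PC-3 among those with a mean of at least 20 CPM were S100A6, DKK1, HAPLN1, LOC100505817, S100A10, ADIRF, PI3, GALNT6, EDIL3, KDR, GSTP1, GJA1, CAV1, UBE2QL1 and HMGA2, ranked by a fitted difference that depends on the prior count that edgeR adds. None of these 15 had a count in LNCaP, which favours a gene in this ranking. DKK1, a secreted inhibitor of Wnt signalling, was at 777 and 1060 CPM, at least 12120-fold higher. HAPLN1, which links hyaluronan to proteoglycans, was at 861 and 806 CPM, at least 10990-fold higher, and its neighbour EDIL3 on chromosome 5 at 191 and 115 CPM, at least 2020-fold higher. KDR, the main VEGF receptor, was at 164 and 128 CPM, at least 1923-fold higher, and HMGA2, an embryonic chromatin protein, at 115.8 and 117 CPM, at least 1536-fold higher.

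In LNCaP the largest difference was that of PEG3, a paternally expressed zinc finger gene on chromosome 19, at 6115, 6460 and 6867 CPM with 1 count in PC-3 (-17.20 ± 0.50). It was followed, among others, by KLK2, UGT2B17, FOLH1, STAT3, DDIT4L, C11orf92, KAT2A, KIF1A, ADAM7, KCNN2, PTGFRN and IGFBP2, and 2 of the 15 genes of this kind are not described here. IGFBP2, which binds insulin-like growth factors, had no count in PC-3 and 148, 88.9 and 111 CPM in LNCaP, at least 1154-fold higher. KIF1A, a motor of axonal transport, had no count in PC-3 and 149, 107 and 149 CPM, at least 1332-fold higher. Among genes with at least 5 CPM in every sample of both lines, VIM, LAMB1 and LMO7 led in PC-3 and STEAP2, EHF and TBX3 in LNCaP, where TBX3, a T-box factor, was at 8.84 and 6.33 against 609, 629 and 601 CPM (-6.34 ± 0.26). MAOA, monoamine oxidase A, was at 29.3 and 24.1 against 595, 865 and 886 CPM (-4.87 ± 0.27).

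Some genes missing from 1 line lay next to each other. Genes were placed by the GENCODE annotation of the files' build, and a run was taken as 2 or more neighbours, among 13238 genes with at least 1 CPM in all samples of at least 1 line, that were at 0.25 CPM or less in all samples of the same line. Of these genes 662 were that low in LNCaP and 411 in PC-3. Of them 169 genes lay in 76 runs in LNCaP and 125 genes in 50 runs in PC-3, so most lay in no run, and the longest had 6 and 8 genes. No test was made of whether this exceeds what gene order alone gives.

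A run low in PC-3 on chromosome 17 spanned chr17:40253422-40540558 (hg19) and 6 genes: DHX58, KAT2A, RAB5C, GHDC, STAT5B and STAT3. They had 1 count in total in PC-3 and 20798 counts in LNCaP. STAT3, which signals for interleukin-6 family cytokines, had no count in PC-3 and 224, 188 and 192 CPM in LNCaP, at least 1985-fold higher. KAT2A, a histone acetyltransferase also known as GCN5, had no count in PC-3 and 168, 109 and 151 CPM in LNCaP, at least 1412-fold higher, and STAT5B, a mediator of growth hormone and prolactin, no count and 42.7, 52.7 and 48.0 CPM. Over all 8 PC-3 samples of the series, treated ones included, DHX58 and RAB5C had 1 count each and the other 4 genes 0. ATP6V0A1, a proton pump subunit further along, was at 0 and 0.68 against 72.9, 73.3 and 76.3 CPM. The flanking genes were expressed in both lines, NKIRAS2 at 67.2 and 65.9 against 79.8, 75.7 and 79.9 CPM and NAGLU at 34.4 and 36.9 against 62.4, 46.4 and 73.3 CPM. ZNF385C, which lies between NKIRAS2 and DHX58, was low in both lines, at 0.34 and 0.068 against 0.28, 0.652 and 0.538 CPM. These are RNA counts, and whether the DNA of the region is present in PC-3 was not tested.

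**Figure D3:**
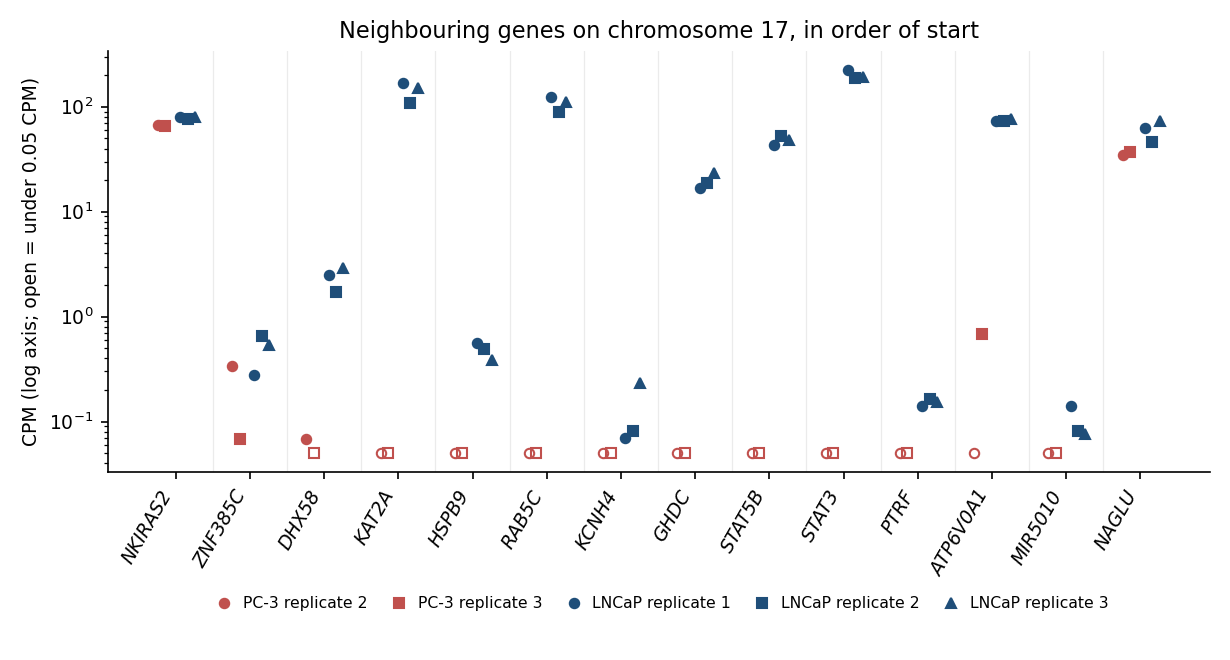
CPM on a log axis for the genes listed between NKIRAS2 and NAGLU on chromosome 17, in order of start and not to scale (red, PC-3; blue, LNCaP; 1 symbol per vehicle sample, open symbols for values under 0.05 CPM). From KAT2A to PTRF every PC-3 value is 0, while both end genes are at 34.4 CPM or more in all 5 samples. ZNF385C, HSPB9, KCNH4, PTRF and MIR5010 are low in both lines.

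Other runs low in PC-3 lay on several chromosomes. The longest was the run of 8 genes on chromosome 4 (chr4:69313181-71070293) with 6 UGT2B genes, which had 12 counts in PC-3 and 22290 in LNCaP. KLK15, KLK3 and KLK2 (chr19:51328545-51383823) had 0 counts in PC-3 and 14440 in LNCaP, and CIC and PAFAH1B3 (chr19:42772689-42807698) 0 and 2405. ZIM2, PEG3 and MIMT1 (chr19:57285915-57359924), of which ZIM2 and PEG3 share exons, had 1 and 256394 counts. The imprinted genes NDN and SNRPN on chromosome 15 had 0 counts in PC-3 and 959 in LNCaP. GPRIN2, FRMPD2 and MAPK8, the last encoding the kinase JNK1, had 2 and 3842 counts. FHIT and PTPRG at the fragile site of chromosome 3 had 3 and 2046.

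Runs low in LNCaP included HAPLN1 and EDIL3 on chromosome 5, with 29003 counts in PC-3 and 0 in LNCaP, CAV2 and CAV1 on chromosome 7 with 4588 and 0, and HOXA13 with HOTTIP with 3569 and 0. RBMS3 and TGFBR2, the type II receptor for TGF-beta, had 2865 counts in PC-3 and 5 in LNCaP. The chemokine genes CXCL6, CXCL1 and CXCL3 had 141 and 0 counts, and the protocadherin genes PCDHA4 to PCDHAC1, which share their last exons, 1289 and 10. CEACAM5 and CEACAM6, adhesion molecules of glandular epithelium, had 3537 and 3. FUNDC1, a mitophagy receptor on chromosome X, had no count in LNCaP and was at 24.9 and 41.2 CPM in PC-3, at least 436-fold higher, beside MAOB and NDP.

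The line difference was measured again in samples that share none with the vehicle comparison, namely cells of both lines given PDA-66 (15 µM), 3 samples per line taken after 12 h and after 24 h. These cells also differ from the vehicle cells by the treatment. At 24 h, 9595 of 14053 genes tested (68.3%) were called, with a biological coefficient of variation of 0.0709. Of the 5376 genes called in vehicle cells and tested at 24 h, 5343 (99.4%) had the same direction, 5172 were called in that direction and 3 in the opposite one. Across all genes tested in both, 86.2% had the same direction, and Pearson's r of the differences was 0.963 over 13840 genes, which are not independent. The 3 genes called in the opposite direction were CSGALNACT1, GAS6 and PFKFB4, each with a size of at most 1.38 on the log2 scale. The vehicle calls of these 3 genes were not kept in every alternative.

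**Figure D4:**
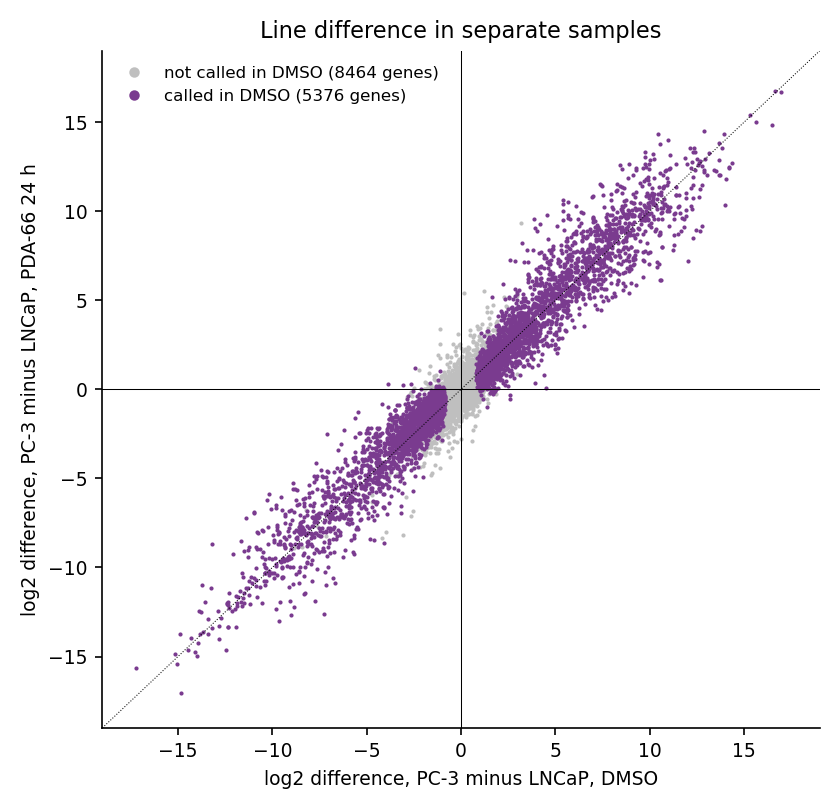
Log2 difference between PC-3 and LNCaP in vehicle samples (horizontal) and in samples treated with PDA-66 for 24 h (vertical), 1 dot per gene tested in both; purple dots are genes called in vehicle samples, and the dotted line marks equal differences. The purple dots run along the dotted line through the lower left and upper right, and 33 of 5376 lie on the opposite side of 0.

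At 12 h, 3538 of 13897 genes (25.5%) were called. LNCaP replicate 2 at 12 h stood apart, with correlations of log2 values of 0.938 and 0.949 with the other LNCaP samples against 0.997 between those. Of the 5282 vehicle calls tested at 12 h, 5167 (97.8%) had the same direction and 2950 were called in it. The number called was 1710, 1777 and 1790 without each PC-3 sample in turn and 2087 without LNCaP replicate 3. Without LNCaP replicate 2, 10138 genes were called, 5311 of 5388 vehicle calls (98.6%) had the same direction, 5116 were called in it and 19 in the opposite one. With all samples the opposite calls were AGR2, ATF3 and SPARC. SPARC, a matrix protein of bone, was 4.5 ± 0.33 in vehicle cells, -1.89 at 12 h and 0.08 at 24 h, and ATF3, a stress-induced factor, -2.13 ± 0.41, 1.88 and 0.02.

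Several values that describe the lines held in the treated samples and others did not. VIM differed by 7.47 at 12 h and 7.20 at 24 h, and CTNNA1 by -8.35 and -8.34. HOXB13, called in vehicle cells at 0.98, differed by -0.96 at 12 h and -0.04 at 24 h. EGFR, -1.37 in vehicle cells, differed by 1.21 and 0.08, and KRT18, 0.46 in vehicle cells, by -1.12 and -0.06. MYC, 1.61 in vehicle cells, differed by 0.17 and 0.64. These 12 h values include LNCaP replicate 2, the sample that stood apart at 12 h. For the counts that follow, CPM in the treated samples is relative to the total count, without the TMM scaling used to pick the genes. Of the 344 genes restricted to PC-3, 228 (66.3%) met both limits in all 12 treated samples as well, and of the 235 restricted to LNCaP, 159 (67.7%). The other line alone stayed at 0.25 CPM or less in its 6 treated samples for 293 (85.2%) and 199 (84.7%). Of the genes in runs, 146 of 169 low in LNCaP and 111 of 125 low in PC-3 stayed at 0.25 CPM or less in the 6 treated samples of that line.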

How the data were processed

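Poly(A) RNA of the DMSO samples of PC-3 (replicates 2 and 3) and LNCaP (replicates 1 to 3) had been sequenced, and the authors deposited raw counts per gene symbol on hg19. The submitters' processing notes name STAR 2.3.1s and edgeR 3.14.0, and the use of strand and of reads that fit several genes is not given in the sources used here. The samples hold 11923105 to 15497248 counts, so a count of 0 allows up to 3 counts per group (0.102 CPM in PC-3, 0.0758 CPM in LNCaP). This floor and the bounds made from it cover counting error only.

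Counts were filtered with filterByExpr, scaled by TMM and tested with edgeR 4.0.16 (quasi-likelihood, R 4.3.3) over these 5 samples, with Benjamini-Hochberg adjustment over all 14407 genes and the study's threshold of 0.001. With 2 against 3 samples, an exact permutation test of a single value cannot go below p = 0.2 (two-sided) and was not used. The 12 h and 24 h PDA-66 samples (3 against 3) were fitted the same way and separately. The scripts were tested on simulated data. Positions are from GENCODE v44lift37 and promoters from RefSeq GRCh38.p14. Of the symbols, 20454 matched directly and a further 1526 by an older symbol. Another 1608 had no match and 120 had several, and these had no place in the order of neighbours. Alternatives were other scalings, filters and tests (DESeq2 1.42.0, limma 3.58.1), a replicate block, other limits and each sample left out. The limits for alike and neighbouring genes and the samples left out for lists were varied after the data had been seen.

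The comparison, its members and the gene lists were chosen with earlier results of these data known. Named genes are list members, the 15 genes with the largest difference in each direction with at least 20 CPM in the higher line, the 10 in each direction with at least 5 CPM in every sample, and genes of neighbour runs. DHX58's flanking genes and those called in the opposite direction after treatment were named after their values were seen. Some items are not reported here.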

Additional observations from a re-analysis of the deposited data

How the results depend on the processing

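No named gene called in vehicle cells changed direction in an alternative, and no gene called in vehicle cells was called in the opposite direction. Among named genes that were not called, JUN, NEAT1, SNAI1, SQLE, TBP and VEGFA changed sign in at least 1 alternative without being called there. The number of calls was 5591, and 3339 with no filter on low counts (1878 higher in PC-3 and 1461 in LNCaP) and 9221 at an adjusted p under 0.05 (4653 and 4568). It was 3751 to 6393 with 1 sample left out, and 5335 to 6573 under the other scalings, filters and tests and the replicate block. Scaling by library size moved the median of all genes to -0.109 and the share of calls higher in PC-3 from 53.2% to 48.0%, and it turned the median of the ribosomal proteins from 0.091 to -0.015. The replicate block, for which the labels give shared numbers only, gave 6573 calls, of which 5556 were among the 5591, and the deviations of same-numbered samples correlated at -0.0366 and -0.0641. Under it 14 of 26 mitotic genes were called, against 3 without it. With 1 sample left out, 1710 to 10138 genes were called at 12 h and 8678 to 10689 at 24 h. Restricted genes numbered 522 with limits of at least 10 CPM in 1 line and at most 0.5 CPM in the other, and 578 with at least 2 and at most 0.1 CPM (579 with 5 and 0.25 CPM), genes alike 1161 and 1121 under the other scalings (1165), and neighbour runs 87 and 184 with limits of 0.1 and 0.5 CPM (126). Of 241 named genes with a test, 20 lost their call without PC-3 replicate 2, 21 without PC-3 replicate 3, 9 without LNCaP replicate 2 and 6 without LNCaP replicate 3, and 29 with no filter. They include ATF3, BCL2L11, CD79A, CSGALNACT1, CXCL1, CXCL3, CYR61, FHIT, GAS6, HOXA6, HOXC4, HOXC5, IL1RN, KIF23, KRT14, MAOB, PCDHA4, PFKFB4, SNRPN, TAGLN, TOP2A, TP63 and UBE2C. The causes of these changes were not tested. Only 2 PC-3 samples carry the comparison, so a sample left out of that line leaves 1 that is assumed to vary like the LNCaP samples.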
